A study of Mus musculus with 17 samples.

Results

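The receptors of the common gamma cytokines were followed here as 6 genes, Il7r, Il2ra, Il2rb, Il4ra, Il15ra and Il21r, chosen by gene symbol and all measured, among 22180 genes of the array. Each was read by 1 probe set. The study hybridised RNA of 9 sorted mouse cell populations to Affymetrix Mouse Gene 2.0 ST arrays, 17 arrays in all. The early innate lymphoid progenitor (EILP) of bone marrow had 1 array and each of the other populations had 2. The other marrow populations were HSC (hematopoietic stem cells), LMPP (multipotent progenitors primed for lymphoid fates), flt3+ CMP and flt3- CMP (common myeloid progenitors with and without surface Flt3), CLP (common lymphoid progenitors) and NK (natural killer cells). The thymus gave ETP, the earliest thymic progenitors, and DN3, a later stage lacking CD4 and CD8. The cells were pooled from chimeras, in which marrow of TCF-1 GFP reporter mice had been placed into CD45.1 B6 hosts after 900 rads of irradiation, and were taken at 12 weeks of reconstitution. The donor reporter was thus shared by the sorted progenitors and thymocytes. The design text does not list NK among the cells so obtained, and neither the age of the animals nor the sort gates were stated in the sources used here. Because the cells were pooled and no label ties replicates to separate animals, each p-value reflects spread among these samples alone, which may be technical.

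Receptors of this family share the common gamma chain, encoded by Il2rg, and each adds a chain of its own that sets which cytokine is bound. Il7r encodes the interleukin 7 receptor alpha chain, needed for early B and T cell development in the mouse. Il2rb is the signalling chain for both interleukin 2 and interleukin 15 and is a hallmark of NK cells, while Il2ra and Il15ra encode the high-affinity chains for those cytokines. Il4ra serves interleukin 4 and interleukin 13, and Il21r serves interleukin 21. Binding activates the kinases Jak1 and Jak3, which phosphorylate STAT transcription factors. Some of these receptors also define cells in common sorting schemes: CLP are usually sorted as positive for the interleukin 7 receptor, DN3 as positive and ETP as negative for CD25 (the product of Il2ra), and NK often as positive for CD122 (the product of Il2rb). A high value of such a receptor in such a population may be set by the sort and is read here as a description.

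The deposited values are log2 expression values, and the median over genes of each array lay between 4.45 and 4.62, with 4.54 over all values. Precision is limited by the number of arrays, and levels of different probe sets are not comparable with each other. By list mean, markers set most labels apart, but the LMPP list did not separate LMPP (9.43 to 9.65) from ETP (9.37 to 9.53) or flt3+ CMP (9.29 to 9.58). The CLP list was 8.45 to 8.71 in CLP and at most 7.60 elsewhere, and the ETP list 7.33 to 7.37 in ETP and at most 6.86 elsewhere. Single members often peaked elsewhere: Dntt, Rag2 and Ly6d of the CLP list in DN3 and Flt3 in LMPP. Of the ETP list, Notch1, Hes1 and Dtx1 peaked in DN3 and Cd44 in EILP. The mean of 4 HSC markers was 6.28 to 6.64 in HSC arrays and at most 5.22 elsewhere. The mean of 6 NK markers was 8.80 to 8.93 in NK arrays and at most 5.20 elsewhere, and that of 4 measured DN3 markers was 8.50 to 8.65 in DN3 arrays and at most 5.17 elsewhere. The mean of 4 EILP genes was 7.16 in EILP and 7.19 to 7.46 in NK: Nfil3 and Zbtb16 were highest in EILP, but Tox was highest in DN3 and Id2 in NK. Neutrophil transcripts (5 of 5 markers measured) averaged 10.31 to 11.96 in the 13 marrow arrays and 4.13 to 5.56 in the 4 thymus arrays. Y-linked transcripts were high in the 5 arrays of CLP, EILP and DN3, where Eif2s3y averaged 8.15 to 8.65 by population, and low in the other populations, at 3.18 to 3.53. Xist averaged 9.20 in CLP, 9.24 in EILP and 7.32 in DN3, against 11.30 to 11.75 in the other populations. CLP, EILP and DN3 thus held both Y-linked transcripts and Xist above the median of all values, and DN3 minus CLP differs in Xist. Of the 12 comparisons made, 7 lie within 1 side of the split by Eif2s3y alone. The other 5 cross it, namely CLP minus LMPP, EILP minus LMPP, EILP minus NK, EILP minus ETP and DN3 minus ETP. In those 5, population and split cannot be told apart.

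The receptors fell into 3 kinds of pattern. Il7r, Il2ra and Il2rb each spanned more than 5 units on the log2 scale between populations, Il4ra was lower in DN3, and Il15ra and Il21r stayed within narrow ranges. In a limma F test over the 9 population means, 5 of 6 receptors differed, against 22.7% of all genes. The range of population means was 6.53 for Il2ra (adjusted p = 2.8e-10), 6.39 for Il2rb (adjusted p = 1.5e-09), 5.71 for Il7r (adjusted p = 2.2e-08), 1.87 for Il4ra (adjusted p = 0.0028) and 1.19 for Il15ra (adjusted p = 0.048). For Il21r it was 0.76 (adjusted p = 0.35). The call of Il15ra was lost in 13 of 24 alternative settings, with an adjusted p between 0.0017 and 0.15. In the 12 comparisons, 17 of the 72 receptor values (23.6%) passed the test, against 4.38% of all gene values. Leaving out the pairs of receptor and population named above from common sorts (Il7r with CLP, Il2ra with DN3 and with ETP, and Il2rb with NK), 9 of 63 (14.3%) did. The gates used were not stated, so values left in, such as Il7r in CMP, may also be set by a sort. The comparisons share arrays, so these values are not independent of each other. In pooled cells, fewer cells that carry a transcript and less transcript per cell cannot be told apart.

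**Figure D1:**
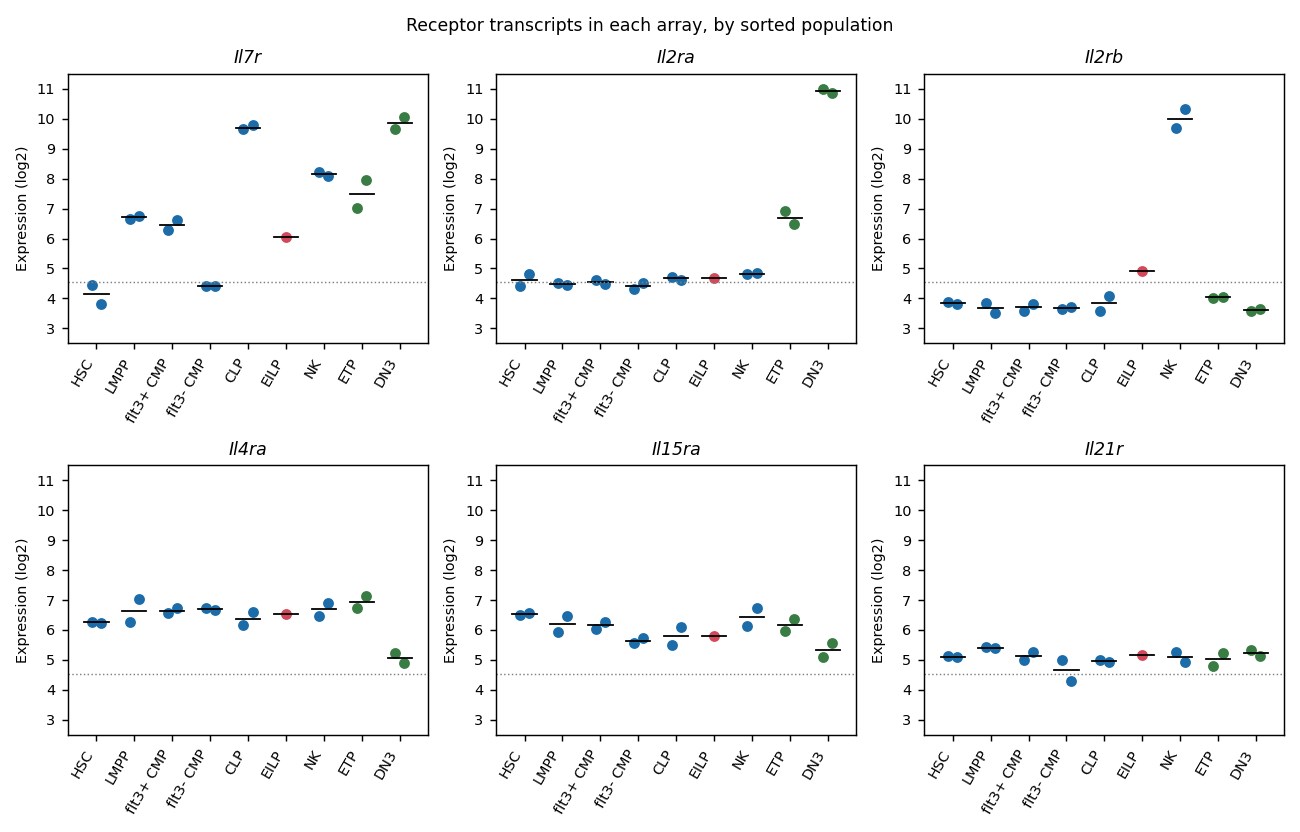
Each panel plots the deposited log2 expression value of 1 receptor gene in every array (points), by sorted population, with a black bar at the mean (marrow blue, EILP red, thymus green) and a dotted line at the median of all values, 4.54. Il7r is spread over many levels, Il2ra stands apart in ETP and DN3, Il2rb stands apart in NK, and Il21r lies between 4.30 and 5.43 in all arrays.

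Il7r (probe set 17315891) was graded across the populations. It was at 4.46 and 3.82 in HSC, 6.65 and 6.76 in LMPP, 6.27 and 6.63 in flt3+ CMP, 4.40 and 4.40 in flt3- CMP, 9.65 and 9.78 in CLP, 6.06 in EILP, 8.22 and 8.10 in NK, 7.02 and 7.95 in ETP, and 9.65 and 10.05 in DN3. DN3 and CLP overlapped at the top, HSC and flt3- CMP overlapped at the bottom, and no other neighbours in the order of means overlapped. Both of the lowest populations lay under the median of all values, which leaves the size of a difference against them uncertain. The ETP replicates were 0.94 apart, the widest gap of any receptor in any population. The 300 bases around the annotated start of Il7r, and of Il2ra below it, are shown because both receptors had their highest level in DN3. They are the RefSeq windows of GRCm38.p6 at chr15:9529827-9530126 (minus strand) and chr2:11642542-11642841 (plus strand), and capitals mark matches on either strand to TGTGGT (RUNX type) and TTCNNNGAA (STAT type).
Il7r: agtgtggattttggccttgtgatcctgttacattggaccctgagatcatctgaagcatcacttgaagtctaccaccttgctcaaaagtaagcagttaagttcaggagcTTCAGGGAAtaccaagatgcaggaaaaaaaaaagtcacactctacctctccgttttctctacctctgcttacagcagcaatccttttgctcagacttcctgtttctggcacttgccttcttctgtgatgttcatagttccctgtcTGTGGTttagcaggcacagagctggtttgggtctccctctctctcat
Il2ra: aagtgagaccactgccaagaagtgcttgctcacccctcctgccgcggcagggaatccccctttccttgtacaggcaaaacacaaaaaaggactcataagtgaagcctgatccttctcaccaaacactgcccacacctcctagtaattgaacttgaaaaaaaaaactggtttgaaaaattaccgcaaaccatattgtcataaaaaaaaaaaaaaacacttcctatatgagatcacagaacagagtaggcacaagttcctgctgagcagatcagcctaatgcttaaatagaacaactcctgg
The Il7r window holds 1 match to each, which do not overlap, and the Il2ra window holds 0 of either. Of 32851 such windows, 16.8% hold TGTGGT and 8.3% hold TTCNNNGAA, so these letters are a description only.

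Along the marrow stages, Il7r was higher in LMPP than in HSC by 2.57 ± 0.28 (log2 difference, SE, n = 2 each, adjusted p = 0.00056). It was the 1 receptor of 6 called there, where 0.6% of all genes were called. In flt3+ CMP minus LMPP, 0 of 6 receptors and 0.442% of all genes were called by limma, and 0 receptors had an unadjusted p under 0.05. Il7r differed there by -0.25 ± 0.28, with a 95% interval of -0.85 to 0.34. Whether the CMP gates used the Il7r protein was not stated. Between the CMP populations, which are split by surface Flt3, Il7r was higher in flt3+ CMP by 2.05 ± 0.28 (adjusted p = 0.023), the 1 receptor of 6 called, against 0.108% of all genes. That call was lost when all probe sets were tested (adjusted p = 0.1) and when either array of LMPP, flt3+ CMP or flt3- CMP was left out, with differences of 1.87 to 2.23 and adjusted p up to 0.16. In CLP minus LMPP the difference was 3.01 ± 0.28, and Il7r was again the 1 receptor of 6 called (5.96% of all genes). Usual gates for CLP select for this receptor, so that value is a description. The mean of 4 mature B and plasma cell markers was 4.39 to 4.63 in CLP, against 3.14 to 3.27 in LMPP. Jchain carried most of that rise, and Cd22 averaged 4.96 in CLP and 3.63 in LMPP. Ms4a1 differed little, and Fcer2a averaged lower in CLP, at 3.09 against 3.30. The part of this list in the Il7r value of CLP was not tested.

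In EILP, Il7r lay below both flt3+ CMP arrays and well above both flt3- CMP arrays. It was at 6.06 in EILP, against 9.65 and 9.78 in CLP, a fall by 3.66 ± 0.34 (n = 1 against 2, adjusted p = 0.00016). No other receptor was called between these populations (1 of 6, and 0.365% of all genes). Usual gates for CLP select for the product of Il7r, so the size of this difference is a description. With only EILP and CLP in the fit the adjusted p was 0.053. Markers of CLP moved the same way: the mean of 5 genes was 5.65 in EILP, against 8.45 to 8.71 in CLP. The mean of 4 measured mature B and plasma cell markers was 4.10 in EILP, against 4.39 to 4.63 in CLP. Of these, Cd22 (3.71 in EILP against 4.96 in CLP) and Jchain were lower in EILP. Fcer2a was higher in EILP (3.31 against 3.09), and Ms4a1 differed little. The part of either list in the result was not tested. Against LMPP, Il7r was not called in EILP (-0.65 ± 0.34, adjusted p = 0.43), with a 95% interval of -1.38 to 0.08.

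Against NK, Il7r in EILP fell by 2.10 ± 0.34 (adjusted p = 0.0028). Against ETP it fell by 1.43 ± 0.34 (adjusted p = 0.017), and without ETP replicate 2 the difference was -0.96 (adjusted p = 0.088). Neutrophil markers averaged 11.96 in EILP, against 5.04 to 5.56 in ETP, and their part was not tested. In NK, Il7r exceeded LMPP by 1.45 ± 0.28 (adjusted p = 0.0053). The mean of 5 mature T cell markers was 4.07 to 4.11 in NK, against 3.77 to 3.80 in LMPP, and that of 4 mature B and plasma cell markers was 3.81 to 3.92 in NK, against 3.14 to 3.27 in LMPP. In the T cell list, Cd3e averaged 4.50 in NK and 3.25 in LMPP, while Cd4 averaged 4.07 in NK and 4.21 in LMPP. The part of both lists in the Il7r value of NK was not tested. In thymus, Il7r was higher in DN3 than in ETP by 2.37 ± 0.28 (adjusted p = 8.5e-05). ETP minus LMPP was not called (0.78 ± 0.28, adjusted p = 0.18), but was 1.25 (adjusted p = 0.017) without ETP replicate 1 and 0.31 without ETP replicate 2.

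Il2ra (probe set 17366992) was raised in thymus only among the populations measured. It lay between 4.30 and 4.85 in the 13 marrow arrays, at 6.91 and 6.47 in ETP, and at 11.01 and 10.86 in DN3. The marrow arrays lay near the median of all values, between percentiles 45 and 55 of their arrays, and below NK all neighbours in the order of means overlapped. EILP, at 4.69, lay just below NK at 4.82 and 4.85, a difference that was not called (-0.14 ± 0.22). In ETP minus LMPP, Il2ra rose by 2.22 ± 0.18 (n = 2 each, adjusted p = 5.6e-06) and was the 1 receptor of 6 called, against 3.42% of all genes. ETP are usually sorted as lacking the protein on their surface, although the transcript was above LMPP. Neutrophil markers averaged 5.04 to 5.56 in ETP, against 11.12 to 11.16 in LMPP, and mature T cell markers 4.36 to 4.57 in ETP, against 3.77 to 3.80 in LMPP. Their part was not tested. In EILP, Il2ra fell by 1.99 ± 0.22 relative to ETP (n = 1 against 2, adjusted p = 4.8e-05), and Il2ra and Il7r were the 2 receptors of 6 called there, against 8.19% of all genes.

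DN3 exceeded ETP in Il2ra by 4.25 ± 0.18 and CLP by 6.26 ± 0.18. CD25 is part of the definition of DN3, so these values are a description of the sort, although they are counted among the 17 calls. EILP and CLP were close in Il2ra, with a difference of 0.02 ± 0.22 and a 95% interval of -0.45 to 0.49. The mean of 4 DN3 markers was 5.16 to 5.17 in ETP, against 4.87 to 4.91 in LMPP. Its members differed: Rag2, of the antigen receptor recombinase, averaged 7.29 in ETP and 6.75 in LMPP, while Ptcra, the pre-T cell receptor chain, averaged 4.80 in ETP and 4.93 in LMPP. The part of more advanced T lineage cells in the ETP value was not tested.

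Il2rb (probe set 17319009) was high in NK and, at a far lower level, above the remaining populations in EILP. It was at 4.92 in the EILP array and at 9.68 and 10.32 in NK. In the 14 other arrays it lay between 3.52 and 4.09, under the median of all values. The EILP array thus stood apart from both sides without overlap. ETP averaged 4.03, 0.18 above HSC without overlap. Below it the order of means ran over HSC, CLP, flt3+ CMP, LMPP, flt3- CMP and DN3 with gaps of at most 0.13, and neighbours overlapped except flt3- CMP and DN3.

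Against LMPP, Il2rb in EILP rose by 1.24 ± 0.27 (n = 1 against 2, adjusted p = 0.019), the 1 receptor of 6 called (3.9% of all genes). The call was lost without LMPP replicate 2 (1.07, adjusted p = 0.11), with only these populations in the fit (adjusted p = 0.052) and with all probe sets tested (adjusted p = 0.053). LMPP lay under the median of all values, which leaves the size uncertain. Other marker lists were higher in EILP too: neutrophil markers averaged 11.96 in EILP, against 11.12 to 11.16 in LMPP, and macrophage markers 5.81 in EILP, against 4.49 to 4.76 in LMPP. Red cell markers (2 of 5 measured) averaged 7.87 in EILP, against 5.51 to 5.75 in LMPP, and the part of these lists was not tested. Against CLP the difference was 1.09 ± 0.27 (adjusted p = 0.16) and against ETP 0.90 ± 0.27 (adjusted p = 0.057), neither of them called. The last was called in 7 of 23 alternatives, with values of 0.87 to 0.95 over all 23. NK markers were also somewhat higher in EILP: their mean over 6 genes was 4.87 in EILP, against 4.48 to 4.52 in CLP and 4.15 to 4.39 in LMPP. Ncr1, which encodes NKp46, was at 5.67 in EILP, against 4.95 in CLP, whereas the granzyme gene Gzma was at 5.44 in EILP, against 5.94 in CLP. The part of NK cells in the EILP value of Il2rb was not tested.

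EILP lay below NK in Il2rb by 5.08 ± 0.27 and in Il7r, the 2 receptors of 6 called there, against 3.48% of all genes. In NK minus LMPP, Il2rb differed by 6.31 ± 0.22, of uncertain size since LMPP lay under the median of all values, and Il7r was the other receptor called (2 of 6, and 6.72% of all genes). CD122 is commonly used to sort NK, so the size of the Il2rb values in NK is a description.

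Il4ra (probe set 17482943) lay in a narrow range in the marrow populations and ETP and was lower in DN3. It was at 5.24 and 4.91 in DN3, and at 6.17 to 7.15, with no overlap, in the 15 other arrays. By population mean, ETP at 6.75 and 7.15 was highest among those and HSC at 6.28 and 6.24 lowest, and the neighbours between them in the order of means mostly overlapped. EILP, at 6.52, lay between the CLP arrays at 6.17 and 6.59. DN3 fell below ETP by 1.87 ± 0.25 (n = 2 each, adjusted p = 3e-04), and 3 of 6 receptors were called there (Il7r and Il2ra higher, Il4ra lower), against 8.73% of all genes. DN3 fell below CLP by 1.31 ± 0.25 (adjusted p = 0.0034). With Il2ra it was 1 of 2 receptors called of 6, against 10.6% of all genes. Without CLP replicate 2 the difference was -1.09 (adjusted p = 0.051). Neutrophil markers averaged 4.13 to 5.01 in DN3, against 11.78 to 11.90 in CLP, and their part was not tested. In DN3 minus CLP, Il7r did not pass (0.14 ± 0.28, 95% interval -0.45 to 0.73).

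Neutrophil transcripts were low in both DN3 and ETP (means of 4.13 to 5.01 in DN3 and 5.04 to 5.56 in ETP). The mean of 5 CMP markers was 5.03 to 5.30 in DN3, against 7.84 to 8.07 in ETP. All 5 averaged lower in DN3, Mpo at 4.98 against 9.82 and Elane at 4.30 against 4.86. Mature T cell markers averaged 6.61 to 6.62 in DN3, against 4.36 to 4.57 in ETP. Cd3e (10.11 against 3.86) and Trat1 (9.03 against 5.02) carried most of that rise. Cd5 averaged 6.08 against 5.16 and Cd4 4.18 against 4.07, while Cd8a was lower in DN3, at 3.68 against 4.23. The part of these lists in the Il4ra difference between DN3 and ETP was not tested. The next gene on chromosome 7 in GRCm38.p6, with 0 genes between, is Il21r, for which DN3 minus ETP was 0.21 ± 0.22 (adjusted p = 0.67). Il2ra and Il15ra likewise lie close together on chromosome 2, with 0 protein-coding genes between.

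Il15ra (probe set 17367004), whose product presents interleukin 15 to neighbouring cells, varied little. It was at 6.49 and 6.55 in HSC, 5.94 and 6.47 in LMPP, 6.02 and 6.28 in flt3+ CMP, 5.55 and 5.72 in flt3- CMP, 5.50 and 6.11 in CLP, 5.80 in EILP, 6.13 and 6.74 in NK, 5.95 and 6.35 in ETP, and 5.09 and 5.56 in DN3. All neighbours in the order of means overlapped, except that EILP lay just above both flt3- CMP arrays. By limma, 0 of the 12 comparisons was called. In DN3 minus ETP, the 1 comparison with an unadjusted p under 0.05, the difference was -0.83 ± 0.27 (limma adjusted p = 0.077). In NK minus LMPP the difference was 0.22 ± 0.27, with a 95% interval of -0.35 to 0.80, while Il2rb, the chain it works with, differed by 6.31.

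Il21r (probe set 17482958) had the flattest profile. Its lowest array was 4.30 in flt3- CMP, its median 5.12 and its highest 5.43 in LMPP. These values lay between percentiles 45 and 64 of their arrays, near the median of all values. A flat profile from 1 probe set at that level cannot tell even expression from weak signal. The LMPP arrays, at 5.43 and 5.39, lay above both DN3 arrays, at 5.32 and 5.14. All other neighbours overlapped, the flt3- CMP replicates being 0.70 apart. By limma, 0 of 12 comparisons was called. The 1 comparison with an unadjusted p under 0.05 was flt3+ CMP minus flt3- CMP at 0.48 ± 0.22 (adjusted p = 0.53). In EILP minus CLP the difference was 0.21 ± 0.27, with a 95% interval of -0.38 to 0.79.

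**Figure D2:**
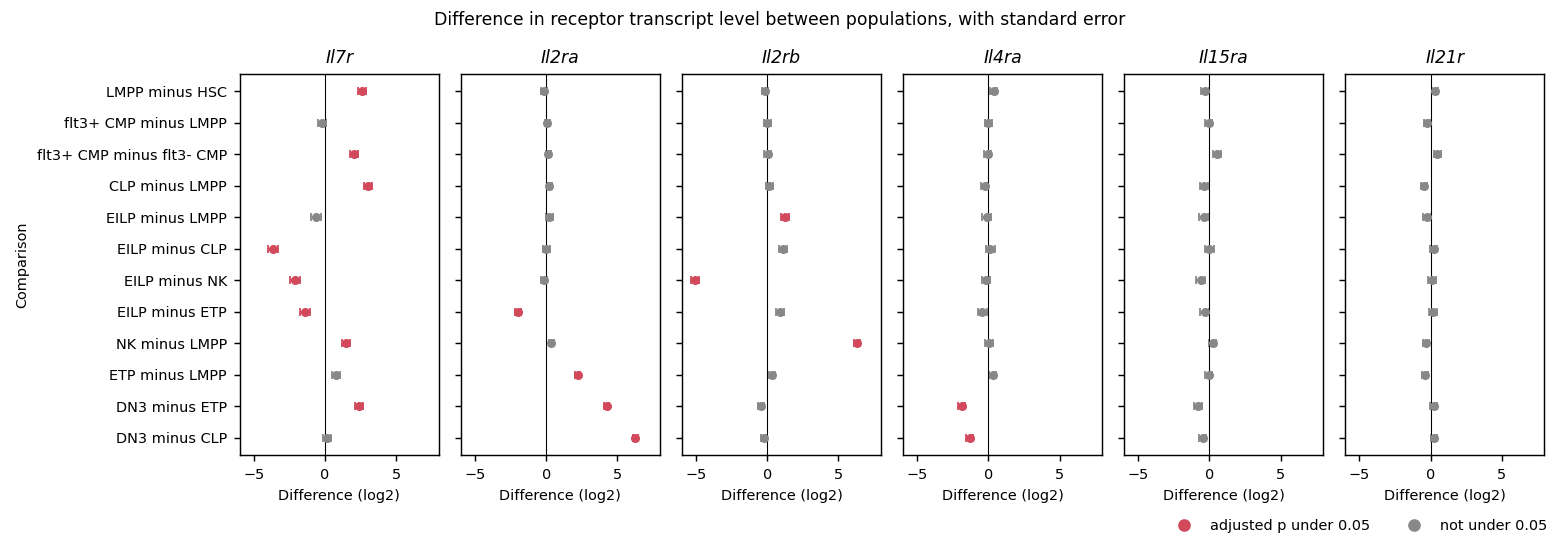
Each panel shows 1 receptor gene, and each point the log2 difference between populations in 1 of the 12 comparisons (rows), with its standard error as a bar and in red where the adjusted p is under 0.05. Il7r has called differences in both directions, and Il15ra and Il21r have none.

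Across the 9 population means, the receptors did not follow a common course. Pearson correlations between pairs of receptors ran from -0.81 for Il2ra with Il4ra to 0.58 for Il4ra with Il15ra. That of Il7r with Il2ra was 0.57 and that of Il2rb with Il15ra 0.41 (each over 9 populations that share arrays and normalisation). Several rest on 1 population, such as DN3 for Il2ra.

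The genes most like each receptor were sought among about 1145 genes whose population means spanned at least 2 log2 units. For Il7r they were Cmah (r = 0.946), Slamf6 (r = 0.913), Ly6d (r = 0.880), Lef1 (r = 0.843) and Gpr25 (r = 0.835), all highest in DN3. Slamf6 is a surface receptor of lymphocytes, Ly6d a surface protein of B-biased lymphoid progenitors, and Lef1 a transcription factor related to TCF-1. For Il2ra they were Trat1 (r = 0.983), Hectd2 (r = 0.981), Ly6k (r = 0.981), Tubb3 (r = 0.974) and Themis (r = 0.973), a regulator of T cell receptor signalling. For Il2rb they were Ncr1 (r = 0.998) and the killer cell lectin-like receptor genes Klrc1 (r = 0.996), Klra9 (r = 0.996), Klrc3 (r = 0.995) and Klre1 (r = 0.995), which are similar in sequence and may share signal on an array.

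For Il4ra the most like genes were Hhex (r = 0.975), a homeobox transcription factor, Plcg2 (r = 0.902), BC035044 (r = 0.899), Tyrobp (r = 0.895) and Mpo (r = 0.891). For Il15ra they were Trim30d (r = 0.895), Peg13 (r = 0.844), Gramd3 (r = 0.834), Ctla2b (r = 0.831) and Eya1 (r = 0.824). For Il21r no gene came near, the highest being Tlcd1 (r = 0.552), Tox (r = 0.515), Slc9a9 (r = 0.505), Tnip3 (r = 0.499) and Rab6b (r = 0.481). All these values are over 9 population means and describe likeness of profile alone. The number of genes with r over 0.9 was 57 for Il2rb, 45 for Il2ra, 2 for Il7r, 2 for Il4ra, and 0 for Il15ra and Il21r.

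Of 30 further genes of the pathway, 27 were measured, and the others, Il2rg and Jak3 among them, were not analysed here. In the F test over populations, 9 of the 27 passed, against 22.7% of all genes. Among the partner chains 1 of 3 passed, Il13ra1, which joins Il4ra in the second type of interleukin 4 receptor. It was at 6.72 and 6.63 in CLP and 6.48 in EILP, against at most 4.91 in every other array. EILP exceeded LMPP in Il13ra1 by 2.39 ± 0.27 (adjusted p = 0.00027), NK by 1.70 ± 0.27 (adjusted p = 0.0025) and ETP by 2.52 ± 0.27 (adjusted p = 3.7e-05), while CLP exceeded LMPP by 2.59 ± 0.22 (adjusted p = 1.2e-05). DN3 fell below CLP by 2.79 ± 0.22 (adjusted p = 8.9e-07). LMPP, ETP and DN3 lay under the median of all values in Il13ra1, and NK, at 4.91 and 4.66, lay near it. That leaves the sizes against these populations uncertain. With only EILP and NK in the fit, their difference had an adjusted p of 0.094. Il4ra had no called difference between LMPP, CLP and EILP. The mean of 5 macrophage markers was 5.81 in EILP and 5.45 to 5.73 in CLP, and at most 5.08 elsewhere. Neutrophil markers averaged 11.96 in EILP and 11.78 to 11.90 in CLP, and at most 11.45 elsewhere. Red cell markers averaged 7.87 in EILP and 7.91 to 8.06 in CLP, and at most 7.26 elsewhere. The part of these lists in the Il13ra1 values was not tested. CLP minus LMPP and the EILP comparisons with LMPP, NK and ETP cross the split by Eif2s3y, where population and split cannot be told apart. Il9r, the interleukin 9 receptor chain, and Crlf2, which pairs with Il7r to bind TSLP, did not pass, with ranges of 0.60 (adjusted p = 0.23) and 0.51 (adjusted p = 0.73).

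**Figure D3:**
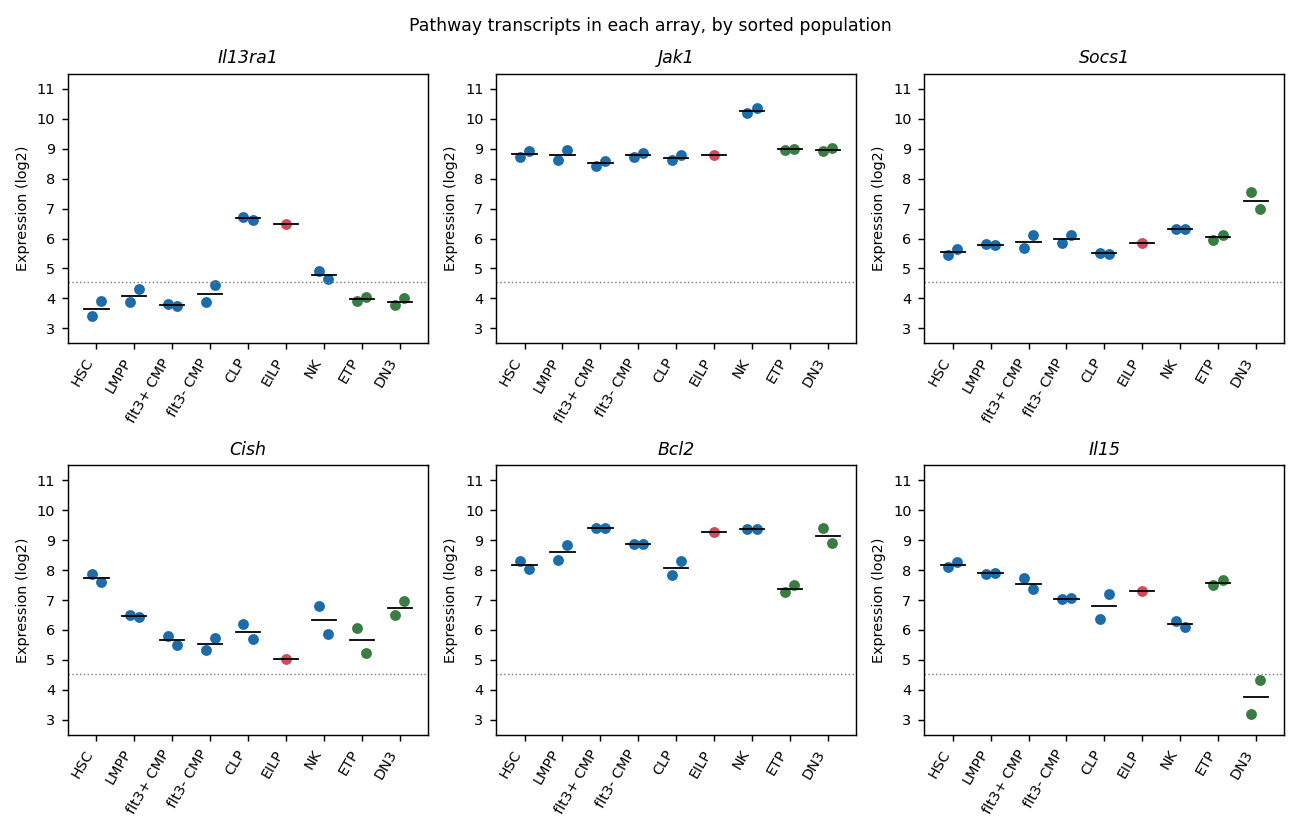
Each panel plots the deposited log2 expression value of 1 pathway gene in every array (points), by sorted population, with a black bar at the mean and a dotted line at the median of all values (marrow blue, EILP red, thymus green). Il13ra1 is high in CLP and EILP, Jak1 in NK and Socs1 in DN3, Il15 is low in DN3, and Bcl2 is lowest in ETP.

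Of 6 measured kinases and STAT factors, 2 passed the F test, Jak1 and Stat5b. Jak1, the kinase bound to the cytokine-specific chains, was at 10.19 and 10.36 in NK, against 8.43 to 9.03 in all other arrays. NK exceeded LMPP in Jak1 by 1.49 ± 0.16 (adjusted p = 5e-05), and EILP fell below NK by 1.49 ± 0.20 (adjusted p = 0.00054, but 0.12 with only these populations in the fit). Jak1 and Il2rb were thus both high in NK, but Jak1 was at 8.78 in EILP and 8.78 in LMPP. Stat5b, a STAT factor downstream of interleukin 2 and interleukin 7, was higher in DN3 than in CLP by 0.86 ± 0.25 (limma adjusted p = 0.045). It was at 7.62 and 7.61 in DN3, 6.28 and 7.23 in CLP, and as high in flt3- CMP, at 7.68 and 7.49. Being under 2-fold, this call was not put through the alternative settings.

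Among 4 feedback inhibitors 2 passed the F test, Socs1 and Cish. Socs1 was at 7.54 and 6.99 in DN3, against at most 6.32 in every other array. It was higher in DN3 than in ETP by 1.23 ± 0.20 (adjusted p = 0.0012) and than in CLP by 1.77 ± 0.20 (adjusted p = 2.8e-05). Cish, an inhibitor induced by STAT5, averaged 7.73 in HSC and was lowest at 5.02 in EILP (F test adjusted p = 0.0016), with no pairwise comparison called. By population mean Socs1 was lowest in CLP, at 5.53 and 5.47, which overlapped HSC at 5.46 and 5.66, and was highest in DN3. CLP and DN3 overlapped in Il7r, and a relation of Socs1 to Il7r was not tested.

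Of 7 response and survival genes, 2 passed the F test, Bcl2 and the cyclin gene Ccnd2. Bcl2, which protects cells from death and is maintained by interleukin 7 in lymphocytes, was at 9.29 in EILP, and at 7.27 and 7.50 in ETP, below every other array. EILP exceeded ETP in Bcl2 by 1.90 ± 0.26 (adjusted p = 0.00035), DN3 exceeded ETP by 1.77 ± 0.21 (adjusted p = 0.00012) and DN3 exceeded CLP by 1.09 ± 0.21 (adjusted p = 0.0037). ETP fell below LMPP by 1.20 ± 0.21 (adjusted p = 0.0051). In EILP minus CLP the Bcl2 value was 1.23 ± 0.26 (adjusted p = 0.09), where Il7r was lower by 3.66. Usual gates for CLP may set that Il7r difference, and a relation of Bcl2 to Il7r was not tested. By population mean, Bcl2 was highest in flt3+ CMP, at 9.42, and was 9.38 in NK. The ETP minus LMPP value was -0.96 (adjusted p = 0.075) without LMPP replicate 2. That of DN3 minus CLP was 0.86 (adjusted p = 0.059) without CLP replicate 1 and 0.85 (adjusted p = 0.056) without DN3 replicate 1. Ccnd2 was lower in EILP than in NK by 1.55 ± 0.32 (adjusted p = 0.015) and than in ETP by 1.24 ± 0.32 (adjusted p = 0.027). NK exceeded LMPP in Ccnd2 by 1.03 ± 0.26 (adjusted p = 0.029), but by 0.62 (adjusted p = 0.27) without LMPP replicate 1 and 0.83 (adjusted p = 0.19) without NK replicate 2. The Ccnd2 value of EILP minus NK was -1.34 (adjusted p = 0.079) without NK replicate 2. That of EILP minus ETP was -1.15 (adjusted p = 0.083) without ETP replicate 1 and -1.33 (adjusted p = 0.056) without ETP replicate 2.

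Of 7 ligand genes, 2 passed the F test, Il15 and Tslp. Il15 was at 3.18 and 4.34 in DN3, against 6.09 to 8.26 in all other arrays, and its highest mean was 8.18 in HSC. DN3 fell below ETP in Il15 by 3.82 ± 0.32 (adjusted p = 3.8e-06) and below CLP by 3.03 ± 0.32 (adjusted p = 1.6e-05), and NK fell below LMPP by 1.70 ± 0.32 (adjusted p = 0.0051). Both DN3 arrays lay under the median of all values, which leaves the size of these falls uncertain. Il15 and Il15ra thus both had their lowest mean in DN3 and their highest in HSC, although Il15ra had no called comparison. Tslp was lower in NK than in LMPP by 1.30 ± 0.31 (adjusted p = 0.023), lower in ETP than in LMPP by 1.41 ± 0.31 (adjusted p = 0.023), and higher in DN3 than in ETP by 1.17 ± 0.31 (adjusted p = 0.033). NK and ETP lay under the median of all values in Tslp, which leaves these sizes uncertain. All 3 calls depended on single arrays. Without ETP replicate 2, DN3 minus ETP was 0.71 (adjusted p = 0.29) and ETP minus LMPP was -0.95 (adjusted p = 0.21), and without DN3 replicate 1, DN3 minus ETP was 0.86 (adjusted p = 0.25). Without LMPP replicate 1 or 2, NK minus LMPP was -1.37 (adjusted p = 0.091) or -1.23 (adjusted p = 0.13), and ETP minus LMPP -1.48 (adjusted p = 0.1) or -1.35 (adjusted p = 0.13). Without NK replicate 2, NK minus LMPP was -1.02 (adjusted p = 0.17). Il2, Il7, Il9 and Il21 lay under the median of all values in every array, and Il4 in all but 1 of the HSC arrays.

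By comparison, the 27 pathway genes gave from 0 calls (EILP minus CLP, LMPP minus HSC and both CMP comparisons) to 6 (NK minus LMPP, 4 higher and 2 lower, where 3.54% of all genes were higher and 3.18% lower). DN3 minus CLP also gave 6, with 4 higher and 2 lower, against 4.69% and 5.92% of all genes. EILP minus NK gave 1 higher and 2 lower (1.57% and 1.91% of all genes), and EILP minus ETP gave 2 higher and 1 lower (4.79% and 3.4%). DN3 minus ETP gave 3 higher and 1 lower (5.2% and 3.53%), ETP minus LMPP 0 higher and 2 lower (1.02% and 2.4%). CLP minus LMPP gave 1 higher and 0 lower (3.75% and 2.2%), and EILP minus LMPP 1 higher and 0 lower (2.1% and 1.79%), which was Il13ra1 in both. In the 4 comparisons without a call, the shares of all genes higher and lower were 0.0406% and 0.325% for EILP minus CLP, and 0.275% and 0.325% for LMPP minus HSC. They were 0.144% and 0.298% for flt3+ CMP minus LMPP, and 0.0451% and 0.0631% for flt3+ CMP minus flt3- CMP. Their median log2 difference lay between -0.19 (EILP minus NK) and 0.23 (NK minus LMPP), against -0.05 and 0.05 over all genes.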

How the data were processed

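Biotin-labelled cDNA made from amplified total RNA was hybridised to 17 arrays, per the labels' protocols. The authors deposited log2 expression values for 41345 probe sets, made with Affymetrix Expression Console per the submitters' processing notes; the version and algorithm were not stated in the sources used here, and the log2 unit was read from the values. GEO's platform annotation gave probe sets their gene names: 23521 had 1 gene symbol, 1814 several and 16010 none. The brightest probe set was kept for the 1082 genes with several, leaving 22180 genes.

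limma 3.58.1 (R 4.3.3; lmFit and eBayes) fitted one mean per population over the 17 arrays (8 residual and 5.33 prior degrees of freedom), which assumes that the single EILP array varies like the others. A gene was called where its p, adjusted by Benjamini-Hochberg over the 22180 genes of each of 12 comparisons or of the F test, was under 0.05. All tests were two-sided. Intervals are 95% intervals from the fit. The median SE was 0.24 for EILP against a pair and 0.20 between pairs. On simulated arrays of this design, 97.5% of 200 genes changed by 2 log2 units were recovered for EILP minus CLP with 7 false calls, and 21.5% of those changed by 1. The simulated noise was normal and independent, with the same spread in EILP as elsewhere. The recovery thus rests on the assumption made for the single EILP array and cannot test it.

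The alternatives were array centring, quantile normalization, dim genes left out, averaged probe sets, all probe sets, an intensity trend with a robust prior, fits on the compared populations alone, a replicate block, and each array left out. Members, lists and comparisons were chosen with earlier results of these data known. Named pathway genes are those called with at least a 2-fold change, with Stat5b, Cish, Il9r and Crlf2 added after their values were seen, and those most like a receptor are the 5 with the highest correlation. The sort definitions used to leave out receptor and population pairs were written after the data were seen.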

Additional observations from a re-analysis of the deposited data

How the results depend on the processing

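The counts moved little. Against 17 receptor calls over the 12 comparisons, leaving out 1 array gave 15 to 18 and the 7 other alternatives that cover all 12 gave 14 to 19. Of the 6 receptors, 5 differed over the 9 populations, and 4 or 5 under every alternative. Of the 17 calls, 12 were kept in every alternative and 5 were lost in at least 1, namely those of Il7r in flt3+ CMP minus flt3- CMP, EILP minus CLP and EILP minus ETP, Il2rb in EILP minus LMPP and Il4ra in DN3 minus CLP. No called difference changed sign (0). Of 55 uncalled values, 3 were called in some alternative. Of 22 pathway calls of at least 2-fold, 12 were kept throughout. Over all genes, same-numbered replicates did not deviate together (correlations over 28 population pairs from -0.07 to 0.09). Such a correlation cannot show whether single genes shift with the replicate number. With the replicate block, fitted on the 16 numbered arrays, 12 calls were made over the 8 comparisons without EILP, against 11. The added call was Il15ra in DN3 minus ETP (-0.83, adjusted p = 0.0076), which quantile normalization also called (-0.89, adjusted p = 0.041). Replicate 2 of Il15ra was the higher in 8 of 8 populations, as in 151 of all genes. The cause was not tested. The number of genes called depended more on the setting. With only the compared populations in the fit, which leaves fewer samples, it was 29 against 133 in LMPP minus HSC, 18 against 98 in flt3+ CMP minus LMPP, 7 against 24 in flt3+ CMP minus flt3- CMP, 125 against 772 in EILP minus NK, 855 against 1817 in EILP minus ETP, 693 against 1491 in NK minus LMPP, 315 against 759 in ETP minus LMPP and 1083 against 1936 in DN3 minus ETP. In EILP minus CLP it was 0 by limma (2474 at an unadjusted p under 0.05), against 81. For flt3+ CMP minus flt3- CMP, centring gave 9, quantile normalization 11, the block 6, all probe sets 1, and leaving out 1 array 1 to 37. All probe sets gave 60 in flt3+ CMP minus LMPP, and leaving out 1 array gave as few as 26 there, 57 in LMPP minus HSC, 636 in CLP minus LMPP, 477 in EILP minus LMPP, 48 in EILP minus CLP, 810 in NK minus LMPP, 447 in ETP minus LMPP and 1115 in DN3 minus ETP. The EILP comparisons have no value without EILP replicate 1 or with the block. Averaging probe sets leaves the receptor values as they are, since each has 1. Signal near or under the median of all values limits Il2rb outside NK, Il2ra in marrow, and Il7r in HSC and flt3- CMP. It also limits Il21r in all populations, Il13ra1 outside CLP and EILP, Tslp in NK and ETP, and Il15 in DN3.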
